A study of Mus musculus with 4 samples.

Results

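The genes described here are 10 transcripts of the amino acid stress response governed by the transcription factor ATF4: Atf4 itself, Asns, Chac1, Trib3, Ddit3, Psat1, Phgdh, Shmt2, Mthfd2 and Slc7a11. They were taken by symbol from the feature list, where all 10 were found once each among 31054 features. Raw unique molecular identifiers (UMIs, counts of single captured RNA molecules) were summed per library within each cell class, and BPTES was compared with vehicle. The study used the kidneys of male C57BL/6 mice that were 19 months old when treatment began and received BPTES or, as vehicle control, DMSO for 1 month, and each group was represented by 2 single-cell RNA libraries. BPTES is a small molecule that inhibits glutaminase, the enzyme that turns glutamine into glutamate. Both groups share sex, strain and age, and no untreated or young kidney was analysed here. Dissociated cells were sorted by CD45, a surface protein of leukocytes, and 20000 CD45-negative and 9000 CD45-positive cells were combined for each library. The labels do not say how many animals stand behind a library, nor whether libraries come from separate animals, so p-values measure only the spread between these libraries, which may be partly technical. The comparison asks whether a month of glutaminase inhibition left an amino acid stress signature in any cell type.

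As background, cells that run short of an amino acid activate the kinase GCN2, and cells with unfolded proteins in the endoplasmic reticulum activate PERK. Both phosphorylate the translation factor eIF2alpha, which slows protein synthesis in general while ATF4 mRNA is translated more. ATF4 then binds composite C/EBP-ATF elements and raises genes for amino acid synthesis, transport and redox balance, along with factors that end the response. Because ATF4 is set largely by translation, its target transcripts are commonly read as the output of the pathway rather than the Atf4 mRNA.

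The element that ATF4 binds was looked for in the promoters, since the members are grouped by this factor. The motif TGATGNAA, on either strand, was present in RefSeq promoter windows (250 bases before to 50 after the start site, GRCm38.p6) of 4 of the 10 genes: Asns, Chac1, Slc7a11 and Trib3. Each 30-base stretch is printed 5′ to 3′ along the gene's strand, with the match in capitals.
Asns, chr6:7693214-7693243, minus strand, match at -23 to -16: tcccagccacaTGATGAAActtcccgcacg
Chac1, chr2:119351038-119351067, plus strand, match at -193 to -186: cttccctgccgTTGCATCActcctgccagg
Slc7a11, chr3:50443661-50443690, minus strand, match at -66 to -59: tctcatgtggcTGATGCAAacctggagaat
Slc7a11, chr3:50443642-50443671, minus strand, match at -47 to -40: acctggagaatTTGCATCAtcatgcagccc
Trib3, chr2:152344028-152344057, minus strand, match at 15 to 22 past the start: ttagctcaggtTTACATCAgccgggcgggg
Positions are counted from the RefSeq start site. In GRCm38 the annotated Asns gene spans chr6:7675169-7693254 and Slc7a11 spans chr3:49892526-50443614, both on the minus strand. Over all 32851 promoter windows of this length, 1304 (3.97%) held the motif, against 4 of the 11 windows of the members. A match is a description of letters in the window and not a binding site, and windows without it say nothing about ATF4. Slc7a11 carried 2 matches in opposite orientation. The Trib3 match lay past the RefSeq start site but outside the annotated Trib3 gene (chr2:152337422-152344032, minus strand), and the Asns match lay before the RefSeq start site but within the annotated Asns gene, so the side of the start depends on the gene model for both.

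The BPTES libraries held 19832 and 17907 barcodes and the DMSO libraries 20091 and 18448, with between 249881074 and 297947661 UMIs in each. After filtering on mitochondrial content and removal of predicted doublets, 46738 cells remained, with a median of 12825 to 14817 UMIs per cell in the 4 libraries. Any pair of libraries shared between 90 and 114 barcode sequences. Clusters were named from marker lists, and a class name means that the cells resemble that type: 4778 cells of 9 clusters stayed unnamed. The principal cell cluster also had Slc12a3, a distal convoluted tubule gene, among its leading genes, and 1 of the 2 neutrophil clusters was led by Adgre4 and Ear2, genes that also led a monocyte cluster. Levels were read in 17 classes and tested in the 14 with at least 50 cells in every library, and in the S1-S2 and S3 subdivisions of the proximal tubule. Levels are given as CPM, a gene's UMIs relative to the class total after scaling by the trimmed mean of M-values (TMM). They are not corrected for transcript length, so levels were compared between classes for 1 gene at a time.

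Atf4, the transcript of the regulator itself, was found in every library of every class. It was highest in B cells, at 149 and 183 CPM under BPTES and 129.8 and 139.9 CPM under DMSO, and this range overlapped with that of the next class, natural killer cells (124.4 ± 14.1 CPM). The lowest mean was that of the thick ascending limb, 42.9 ± 6.58 CPM (SD over the 4 libraries), next to distal convoluted tubule at 44.5 ± 8.35 CPM, and these neighbours overlapped. The 4 lowest classes were all tubular epithelium, while the median over the 17 classes was 97.7 CPM.

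The genes that ATF4 raises late in the response, or that restrain it, had their highest levels outside the tubule. Ddit3 encodes CHOP, a transcription factor tied to cell death under prolonged stress, and was highest in neutrophils at 63.8 ± 6.79 CPM. Natural killer cells (43.2 ± 6.13 CPM) came next and did not overlap with neutrophils. Chac1, an enzyme that degrades glutathione, was highest in neutrophils at 17.0 ± 6.13 CPM, followed by plasma cells at 5.49 ± 1.62 CPM and endothelium at 3.30 ± 0.13 CPM. None of these 3 neighbours overlapped, and endothelium did not overlap with the next class. Trib3, a pseudokinase that dampens ATF4 activity, was highest in endothelium at 8.59 ± 1.97 CPM. Fibroblasts followed at 5.27 ± 4.15 CPM and overlapped with endothelium. Innate lymphoid cells had 0 Trib3 UMIs in each library.

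Within endothelium, the level of Trib3 depended on the cluster. It was 10.8 CPM in the main cluster (2895 cells, led by Plvap and Ednrb), 4.36 CPM in the cluster led by Aqp1 and Sox17 (507 cells) and 0 CPM in that led by Plat and Ehd3 (156 cells). Asns, the asparagine synthetase, was 11.8, 3.12 and 10.5 CPM in the same clusters. Chac1 was at 3.34, 3.12 and 3.01 CPM. The cluster without Trib3 UMIs thus kept Asns and Chac1 near the level of the main cluster. These are levels in clusters built from the same cells, pooled over libraries, and carry no test.

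Across classes, Asns was highest in plasma cells (15.7 ± 7.62 CPM) and endothelium (10.36 ± 2.33 CPM), which overlapped. Natural killer cells had 0 Asns UMIs. Plasma cells also had the highest level of Phgdh, the first enzyme of serine synthesis, at 60.3 ± 4.67 CPM, with no overlap with the next class, T cells (35.8 ± 2.81 CPM). Plasma cell values rest on few DMSO cells (34 and 28 against 231 and 177 under BPTES), and the DMSO library with 34 had a median of 8505 UMIs per plasma cell against 87508.5 in the other. The class was therefore not tested. In it Asns was higher in both treated libraries, at 19.0 and 24.2 against 6.58 and 13.1 CPM (230, 169, 9 and 37 UMIs). Atf4, Ddit3, Shmt2 and Mthfd2 also lay higher under BPTES without overlap, Psat1 lay lower, and the other 4 members overlapped, against 39.9% of 11369 genes without overlap in this class.

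Of the enzymes that follow Phgdh, Shmt2 was highest in the proximal tubule, Psat1 was level there with cycling cells and Mthfd2 was lowest there. Psat1, the serine synthesis transaminase, was at 31.3 ± 2.73 CPM there and at 31.6 ± 7.16 CPM in cycling cells, which overlapped, while natural killer cells came next at 12.4 ± 7.29 CPM. Shmt2, which moves a carbon from serine to folate in mitochondria, reached 78.4 ± 3.34 CPM in proximal tubule. This was 3.11-fold above cycling cells, without overlap. Mthfd2, the next mitochondrial folate enzyme, had a different order: it was lowest in proximal tubule (3.40 ± 0.13 CPM, overlapping with the class above it) and highest in cycling cells (58.1 ± 9.03 CPM) and dendritic cells (45.05 ± 6.20 CPM). Over the means of the 17 classes, log2(CPM + 1) of Psat1 and Shmt2 had a Pearson r of 0.80 and that of Phgdh and Shmt2 an r of 0.72, which is a description over classes from the same libraries.

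Slc7a11, the light chain of the cystine-glutamate exchanger xCT, was highest in myeloid cells. Neutrophils held 1049 and 1302 CPM under BPTES and 1697 and 1873 CPM under DMSO. Monocytes followed at 82.4 ± 38.1 CPM, a 17.97-fold lower mean without overlap, and dendritic cells at 12.03 ± 6.15 CPM. RNA released from broken cells can give such values in classes that do not make a transcript, so the level was set beside that of the neutrophil markers. In monocytes Slc7a11 stood at 5.57% of its neutrophil level, and 1 of the 6 markers (Csf3r) was at least as high there, with a marker median of 0.341%. In proximal tubule Slc7a11 stood at 0.0142% of its neutrophil level and all 6 markers were at least as high, so the tubular Slc7a11 signal was read as background. Proximal tubule markers summed to between 121.9 and 578 CPM in the 9 leukocyte classes compared, against 12695 to 13203 CPM in proximal tubule. Jchain, the plasma cell joining chain, was at 14.6 to 102.8 CPM in those classes other than plasma cells under BPTES and at 2.03 to 8.17 CPM under DMSO.

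**Figure D1:**
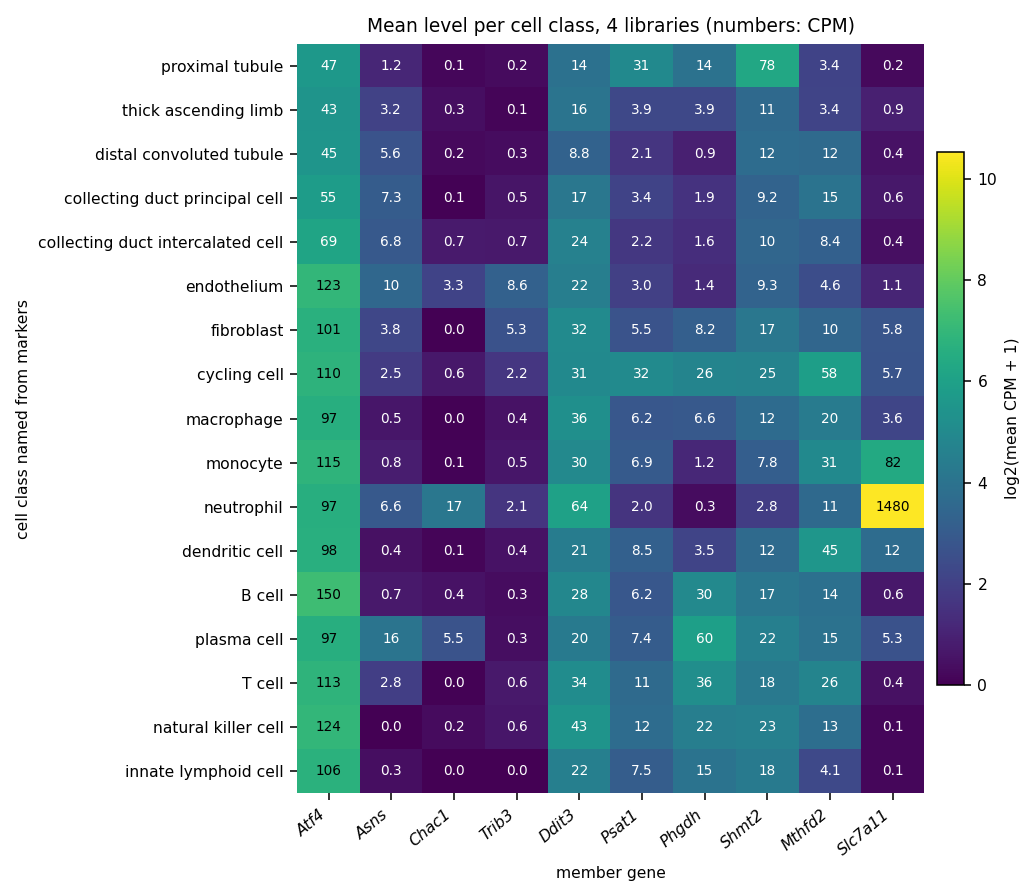
Mean level of each member gene (columns) in 17 cell classes (rows), averaged over 4 libraries; colour shows log2(mean CPM + 1) and the printed number is the mean CPM. Slc7a11 in neutrophils (1480.2 CPM) stands far above every other class, Shmt2 peaks in proximal tubule (78.4 CPM) and Trib3 in endothelium (8.59 CPM), while Atf4 is present throughout.

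With BPTES, edgeR called 0 members higher in any tested class in the main fit. That fit used all 4 libraries and the low-count filter, with predicted doublets removed, clusters at resolution 1 and no replicate block. Some other settings called members higher, among them Ddit3 in dendritic cells with predicted doublets kept and Mthfd2 in monocytes at a finer clustering. They are given below with the share of all genes called. Not every member could be tested in each class. Of the 14 classes, Trib3 passed the filter in 2, Chac1 in 3, Asns in 6 and Slc7a11 in 7. Distal convoluted tubule allowed 3 of the 10 members to be tested and intercalated cells 4. Of 92 gene and class pairs that passed the low-count filter in the 14 classes, 1 passed the threshold of 0.05 on the adjusted p-value (edgeR's quasi-likelihood test, adjusted over all genes of the class): Slc7a11, which fell in monocytes. Signs were mixed, with 36 pairs above and 56 below 0, and 15 pairs had an unadjusted p under 0.05. Of these, 11 were lower under BPTES and 4 higher. Among the lower, Chac1 in proximal tubule and Asns in cycling cells could pass the filter through the DMSO libraries alone. Such p-values were common over all genes, at 3388 of 16010 in proximal tubule, 3544 of 12430 in monocytes and 746 of 12160 in cycling cells. The counts of pairs are therefore a description. DESeq2 called 2 members in monocytes, beside 9.06% of all genes, and 1 in proximal tubule, beside 5.88%. In the other classes it called 0. The members called by edgeR are read against the share of all tested genes that edgeR called in each class. This share was 0.706% in proximal tubule, 0.121% in its S1-S2 and 0.00796% in its S3 subdivision. The share was 0.362% in thick ascending limb, 0.0869% in distal convoluted tubule, 0.0767% in principal and 0.0773% in intercalated cells. It was 0.778% in endothelium, 9.27% in monocytes, 1.28% in macrophages, 2.15% in dendritic cells, 0.890% in B cells, 0.157% in T cells and 0.429% in innate lymphoid cells. In neutrophils edgeR called 0 of 9653 genes (0.00%; 833 at an unadjusted p under 0.05, and 51 by DESeq2), and in cycling cells 0 of 12160 (0.00%; 746 unadjusted, and 10 by DESeq2). The counts of members called in these classes were 0 as well.

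**Figure D2:**
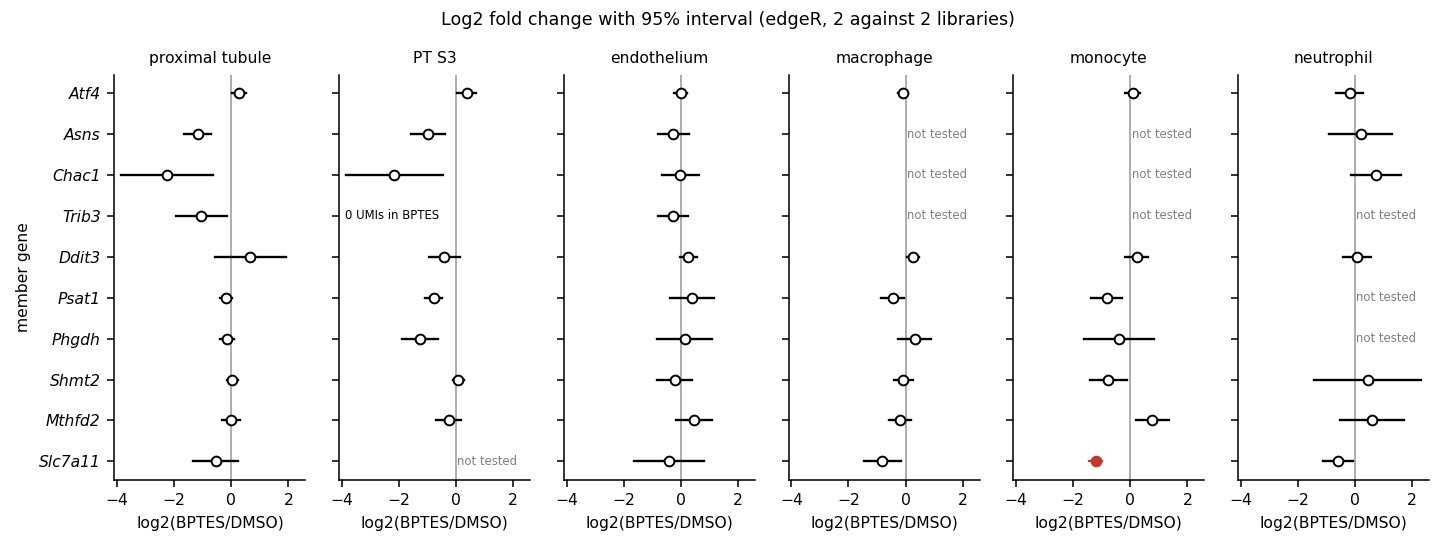
Log2 fold change of BPTES over DMSO (points) with its 95% interval (lines) for the 10 members in 6 classes or subdivisions, from edgeR on 2 against 2 libraries; the filled point passed the adjusted threshold, and Trib3 in S3 has no point because both BPTES libraries held 0 UMIs. Slc7a11 in monocytes (-1.22) is the single filled point, and the intervals of Asns in proximal tubule and S3 lie below 0 without passing the adjusted threshold.

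Proximal tubule cells, which take up glutamine for ammonia production, gave the largest class, with 4701 to 5479 cells per library. All 10 members passed the filter there and 4 had an unadjusted p under 0.05, as did 3388 of all 16010 genes. By edgeR 0 members were called. Asns came closest. It was at 0.69 and 0.80 CPM under BPTES (85 and 75 UMIs) and at 1.81 and 1.55 CPM under DMSO (217 and 163 UMIs). Both treated libraries lay below both controls, and in a class sum fewer expressing cells and less RNA per cell cannot be told apart. The comparison gave a log2 fold change of -1.18 (SE 0.21, 95% interval -1.66 to -0.70), and the edgeR adjusted p of 0.0568 missed the threshold. DESeq2 called Asns (adjusted p = 0.00417; 5.88% of all genes called). So did edgeR at a finer clustering (adjusted p = 0.0488; 0.726%) and without the low-count filter (adjusted p = 8.6e-06; 8.95%). It was not called by edgeR with another scaling, with predicted doublets kept or at most 25% mitochondrial UMIs. Leaving out 1 library moved the log2 fold change from -1.30 to -1.06, and whether it passed depended on the library.

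A small cluster of the proximal tubule bears on this value. It was led by C3, the fibrinogen genes and Havcr1 (kidney injury molecule 1), and it held 0.748% and 0.672% of the proximal tubule cells under BPTES (41 and 35 cells) and 3.61% and 3.30% under DMSO (196 and 155 cells). Asns was higher in this injured cluster than in the other subdivisions, at 3.72 and 3.82 CPM under BPTES (3 and 2 UMIs) and 14.3 and 5.77 CPM under DMSO (53 and 18 UMIs, of which 12 of the 53 lay in 1 cell). The treated values thus rest on very few molecules. Without the cluster, the log2 fold change of Asns in proximal tubule was -0.97 with an edgeR adjusted p of 0.102. S3 cells, described below, numbered 1100 of 5479 and 778 of 5205 under BPTES and 1385 of 5425 and 1242 of 4701 under DMSO. Asns was higher in S3 than in the whole class in each library, and the part of the S3 share was not tested. The median share of mitochondrial UMIs per proximal tubule cell also differed without overlap, at 16.3% and 21.5% under BPTES and 12.4% and 15.7% under DMSO, and its part in the result was not tested.

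Chac1 and Trib3 were barely detected in proximal tubule. Chac1 gave 39 and 16 UMIs in the DMSO libraries, with up to 8 in 1 cell, and 10 and 1 in the BPTES libraries. Its log2 fold change of -2.26 (SE 0.69) had an edgeR adjusted p of 0.138. Leaving out 1 library moved it from -4.35 (without BPTES replicate 1) to -1.57 (without BPTES replicate 2), and it passed without DMSO replicate 2 (log2 -2.70, edgeR adjusted p = 8.5e-04; 5.01% of all genes called) and without the low-count filter (edgeR adjusted p = 8.1e-04; 8.95%). Trib3 gave 17 and 15 UMIs against 46 and 24, a log2 fold change of -1.06 (SE 0.39, edgeR adjusted p = 0.182) that was -0.62 without DMSO replicate 1. Both were lower in each treated library, but at these counts a few cells set the sum. Ddit3 went the other way, at 11.05 and 23.6 CPM under BPTES and 9.71 and 12.0 CPM under DMSO, and the groups overlapped. The log2 fold change of 0.67 (95% interval -0.57 to 1.91, edgeR adjusted p = 0.429) rested on BPTES replicate 2, and without that library it was 0.03. Without BPTES replicate 1 it was 1.13 with an edgeR adjusted p of 0.0163, in a setting that called 9.63% of all genes. With all 4 libraries but no low-count filter it passed as well (edgeR adjusted p = 6.1e-07; 8.95% of all genes called).

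Atf4 was at 47.5 and 56.6 CPM under BPTES and at 40.6 and 44.8 CPM under DMSO in proximal tubule. The treated libraries lay above the controls, by a log2 fold change of 0.28 (SE 0.11; edgeR adjusted p = 0.194). It passed the threshold without BPTES replicate 1 (log2 0.41, edgeR adjusted p = 0.0423), where 9.63% of all genes were called, and was 0.15 without BPTES replicate 2.

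The serine and folate enzymes differed little in proximal tubule as a whole. The intervals of the log2 fold change ran from -0.40 to 0.02 for Psat1, from -0.39 to 0.08 for Phgdh, from -0.17 to 0.25 for Shmt2 and from -0.32 to 0.31 for Mthfd2. Shmt2 was at 83.3 and 75.7 CPM under BPTES and 77.1 and 77.55 CPM under DMSO, and the groups overlapped. Slc7a11 was at 0.17 and 0.17 CPM against 0.23 and 0.28 CPM, which is in the range read as background above. The groups did not overlap for 6 of the 10 members, 1 higher and 5 lower under BPTES. This count is near the background, 58.1% of all genes tested in proximal tubule. The lower members included Chac1, which could pass the low-count filter through the DMSO libraries alone, and Slc7a11, read as background. This count and the median of the members are therefore a description. The median log2 fold change of the members was -0.17 and that of all tested genes -0.0046.

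The S3 subdivision, the last and most medullary stretch of the proximal tubule, differed from S1-S2 in the level of several members. Shmt2 was 131 and 118 CPM under BPTES and 117 and 119.5 CPM under DMSO in S3, and 67.6, 67.5, 61.5 and 61.2 CPM in S1-S2. Phgdh had the reverse order, with 1.39 to 4.56 CPM in S3 and 16.7 to 20.7 CPM in S1-S2. For both genes each S3 library lay on the same side of every S1-S2 library. Within S1-S2, Psat1 and Phgdh were at 76.8 and 38.5 CPM in the cluster led by Car3 and Npl. They were at 10.3 and 2.39 CPM in that led by Gm42397 and Gm45792. The median share of mitochondrial UMIs was 3.91% in the Car3 cluster and 8.35% in the Gm42397 cluster. These segment and cluster levels describe groups built from the same cells and carry no test.

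In S3, 9 of the 10 members passed the filter (Slc7a11 did not), 0 were called by edgeR and 6 had an unadjusted p under 0.05, while DESeq2 called 1, Psat1. Of all 12563 genes tested in S3, edgeR called 1 and 892 had an unadjusted p under 0.05, while DESeq2 called 0.661%. Without the low-count filter edgeR called 5 members, Atf4 higher and Asns, Trib3, Psat1 and Phgdh lower, and 1.84% of all genes. Psat1 was at 15.1 and 14.0 CPM under BPTES and 27.3 and 23.0 CPM under DMSO. The groups did not overlap, with a log2 fold change of -0.79 (SE 0.13), an edgeR adjusted p of 0.144 and a DESeq2 adjusted p of 0.00423. Phgdh was at 1.39 and 2.23 CPM against 4.56 and 3.83 CPM, a log2 fold change of -1.28 (SE 0.27, edgeR adjusted p = 0.264). Both genes of serine synthesis were thus lower in each treated library in S3.

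The make-up of S3 differed between the groups as well. The S3 cluster led by Acy3 and Cndp2 held 26.0% and 18.3% of S3 cells under BPTES and 35.3% and 31.2% under DMSO, the cluster led by Cyp2a4 41.7% and 38.4% against 29.3% and 32.5%, and the cluster led by Kap and Acsm3 overlapped. The median share of mitochondrial UMIs was 2.19% in the Acy3 cluster, 16.5% in the Cyp2a4 cluster and 14.1% in the Kap cluster. The part of this share in the make-up was not tested. Psat1 was highest in the Acy3 cluster and lowest in the Cyp2a4 cluster. Within each of the 3 clusters both genes were lower in both treated libraries, in levels before TMM scaling. Psat1 was at 26.9 and 27.3 against 45.1 and 36.9 CPM in the Acy3 cluster, at 8.84 and 6.63 against 14.8 and 9.89 CPM in the Cyp2a4 cluster and at 15.6 and 12.8 against 23.3 and 22.1 CPM in the Kap cluster. Phgdh was at 1.76 and 1.53 against 4.86 and 4.51 CPM, at 1.09 and 0.90 against 5.51 and 2.94 CPM and at 1.68 and 3.68 against 4.05 and 3.91 CPM in the same order of clusters.

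Asns gave 36 and 24 UMIs in S3 under BPTES and 94 and 72 under DMSO, or 1.17 and 1.58 against 2.82 and 2.44 CPM. Its log2 fold change of -0.99 (SE 0.26, edgeR adjusted p = 0.422) stands beside one of -0.71 in S1-S2 (SE 0.26, edgeR adjusted p = 0.200), and the difference between the subdivisions was not tested. Trib3 had 0 UMIs in both BPTES libraries and 15 and 11 under DMSO. Taking 3 counts over the group as the limit that a count of 0 allows gave a bound of 6.49-fold lower. That limit treats UMIs as independent, so the bound is no firm minimum. Of the 15 UMIs, 8 lay in 1 cell. The edgeR adjusted p was 0.230. Chac1 had 5 and 0 UMIs against 16 and 15, with a log2 fold change of -2.17 (SE 0.72, edgeR adjusted p = 0.553), and 8 of the 16 lay in 1 cell. It was -1.59 without BPTES replicate 2, and without BPTES replicate 1 the remaining treated library held 0 UMIs.

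Atf4 in S3 was at 48.4 and 56.6 CPM under BPTES and at 36.0 and 45.0 CPM under DMSO, a log2 fold change of 0.37 (SE 0.14, edgeR adjusted p = 0.621) that ran from 0.22 to 0.54 when DMSO replicate 1 or 2 was left out. The Atf4 transcript was thus higher in both treated libraries of S3, while Asns, Chac1, Trib3, Psat1, Phgdh and Mthfd2 were lower in both. The groups did not overlap for 7 of the 9 members tested in S3, 1 higher and 6 lower, against 37.0% of all genes. The median log2 fold change was -0.79 for the members and 0.0021 for all genes tested. Chac1 and Trib3 could pass the low-count filter through the DMSO libraries alone, so that these counts and the median are a description. Ddit3 in S3 was at 4.47 and 6.17 against 5.88 and 8.004 CPM, and the groups overlapped.

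**Figure D3:**
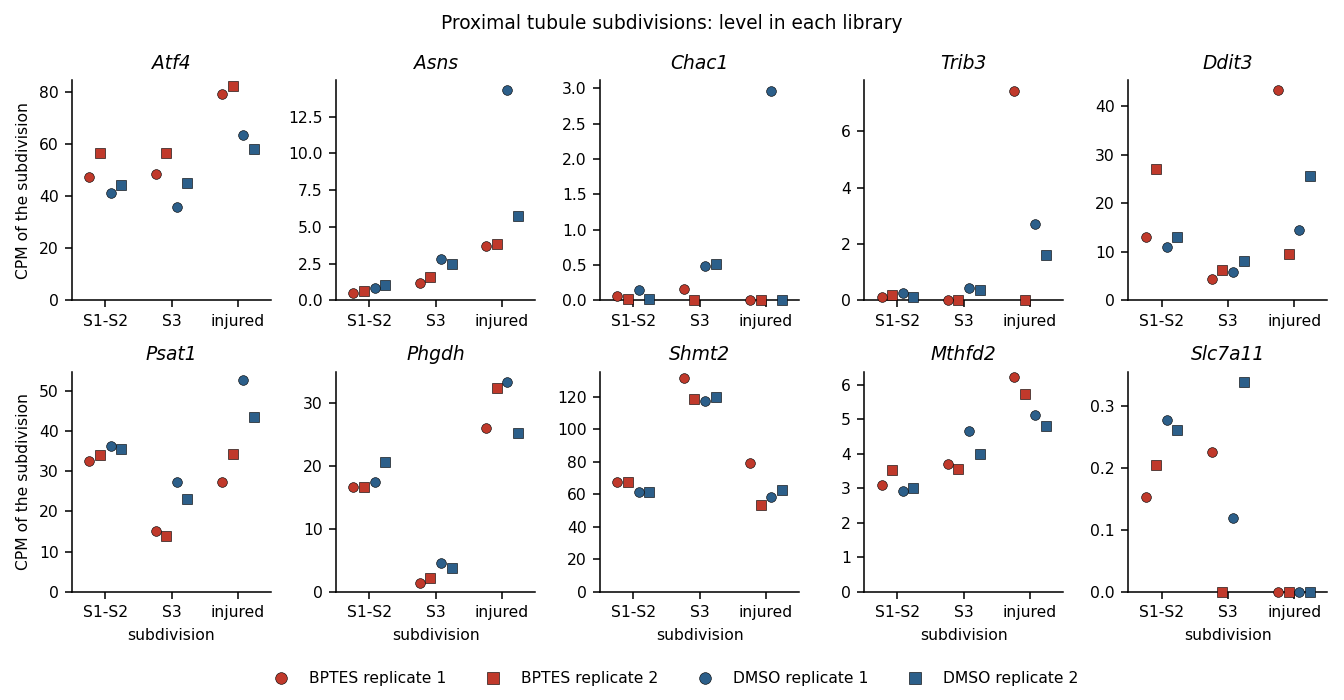
Level of each member in the S1-S2, S3 and injured subdivisions of the proximal tubule (CPM of the subdivision, linear axes from 0), with 1 point per library. In S3 the BPTES points of Asns, Trib3, Psat1 and Phgdh lie below the DMSO points and those of Atf4 above them, and the injured cluster has 35 to 196 cells per library, so its points vary widely.

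In S1-S2, 9 of the 10 members passed the filter, and 0 were called by edgeR or DESeq2. By edgeR 2 (Atf4 and Asns) had an unadjusted p under 0.05, as did 3223 of all 15688 genes tested. The make-up of S1-S2 differed too: of 7 clusters, 3 held a larger and 3 a smaller share of its cells in both treated libraries. The cluster led by Apob and Gpx3 held 14.9% and 20.7% under BPTES against 9.91% and 11.1%. That led by Gm42397 held 9.29% and 6.03% against 14.1% and 15.5%. Cell quality differed between them, with a median of 33.7% mitochondrial UMIs and 8333 UMIs in the Apob cluster. The Gm42397 cluster had 8.35% and 31858 UMIs, and the part of cell quality in the make-up was not tested. Before TMM scaling Atf4 was higher in both treated libraries in 3 of the 7 clusters and overlapped in 4, and Asns was lower in 4 and overlapped in 3. Psat1 was lower in 6 and Phgdh in 5 of the 7, while Shmt2 was higher in 5 and Mthfd2 and Ddit3 in 2 each. Over S1-S2 as a whole the groups did not overlap for 8 of the 9 members tested, 4 higher (Atf4, Ddit3, Shmt2 and Mthfd2) and 4 lower (Asns, Psat1, Phgdh and Slc7a11), against 55.3% of all genes. Slc7a11 in proximal tubule was read as background above, so these counts are a description. Atf4 was at 47.2 and 56.5 CPM under BPTES and 41.3 and 44.3 CPM under DMSO (log2 0.28, SE 0.10, edgeR adjusted p = 0.195). Ddit3 was at 13.1 and 27.1 against 11.001 and 13.02 CPM, so that BPTES replicate 2 again stood apart from the other libraries (log2 0.74, SE 0.41, edgeR adjusted p = 0.396). Without BPTES replicate 1 it was the single member called (log2 1.18, edgeR adjusted p = 0.00708) beside 3.11% of all genes, and without BPTES replicate 2 the value was 0.12. That library had its highest Ddit3 levels in the pair of clusters led by Snhg11, with 47.3 and 47.5 CPM against 17.4 to 22.4 CPM in the other 3 libraries.

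Monocytes gave the single call. Slc7a11 was at 48.1 and 51.0 CPM under BPTES (543 and 472 UMIs) and at 110.8 and 119.7 CPM under DMSO (1862 and 825 UMIs). Both treated libraries lay below both controls, and Slc7a11 fell, with a log2 fold change of -1.22 (SE 0.10) and an edgeR adjusted p of 0.00670. It was the 1 member called of 7 that passed the filter in this class, in which 9.27% of all genes were called, so that this count is near the background. The call was lost without BPTES replicate 1 (log2 -1.17, edgeR adjusted p = 0.0512), without BPTES replicate 2 (-1.28, 0.0656), at a finer clustering (-1.50, 0.122) and with predicted doublets kept (-1.59, 0.123), with values of about the same size or larger. The share of all genes called fell as well in these settings, to 0.267%, 0.0919%, 2.72% and 0.0606%. DESeq2 called it with an adjusted p of 6.8e-13.

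The treated libraries were lower in both monocyte clusters, whose levels are given before TMM scaling. In the cluster led by Fn1 and Chil3 (genes of classical monocytes), Slc7a11 was at 29.9 and 37.1 CPM under BPTES and 81.0 and 100.5 CPM under DMSO. In the cluster led by Adgre4 and Ear2 (genes of nonclassical monocytes), it was at 85.0 and 77.2 against 277 and 195.6 CPM. The Fn1 cluster made up 49.1% and 53.7% of monocytes under BPTES and 68.3% and 63.6% under DMSO, and it had the lower Slc7a11 level of the pair. Without the Fn1 cluster the log2 fold change was -1.59 (edgeR adjusted p = 0.00376), and without the Adgre4 cluster it was -1.41 (edgeR adjusted p = 0.0335).

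Few cells carried it. Cells with at least 10 Slc7a11 UMIs numbered 14 of 477 and 7 of 410 under BPTES and 44 of 559 and 22 of 236 under DMSO. They held 284 and 138 of the Slc7a11 UMIs in the treated libraries and 1441 and 597 in the controls. With these cells set aside, the level before TMM scaling was 23.7 and 35.8 CPM under BPTES and 28.7 and 38.0 CPM under DMSO, and the groups overlapped. The cut uses the measured gene, so this describes where the UMIs lay and is no test. The median total of these cells was 30834 and 34221.5 UMIs in the DMSO libraries and 17157.5 and 15865 in the BPTES libraries.

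Neutrophil markers differed in monocytes too. The 6 neutrophil markers summed to 181 and 133 CPM in monocytes under BPTES and to 297 and 402 CPM under DMSO, against 38049 to 67793 CPM in neutrophils, and all 6 were detected in every library. S100a8 was at 17.8 and 6.52 against 86.5 and 128.9 CPM and S100a9 at 18.1 and 5.99 against 104 and 136 CPM, while Csf3r was higher in both treated libraries (134.7 and 119.1 against 93.5 and 112.04 CPM). Of the cells with at least 10 Slc7a11 UMIs, 2 of 14, 0 of 7, 7 of 44 and 3 of 22 held a UMI of Retnlg, Cxcr2 or Mmp9. Without all monocytes holding such a UMI, the log2 fold change was -1.13 with an edgeR adjusted p of 0.00778. This setting was chosen after the values were seen, and the part of S100a8 and S100a9 RNA in the result was not tested.

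**Figure D4:**
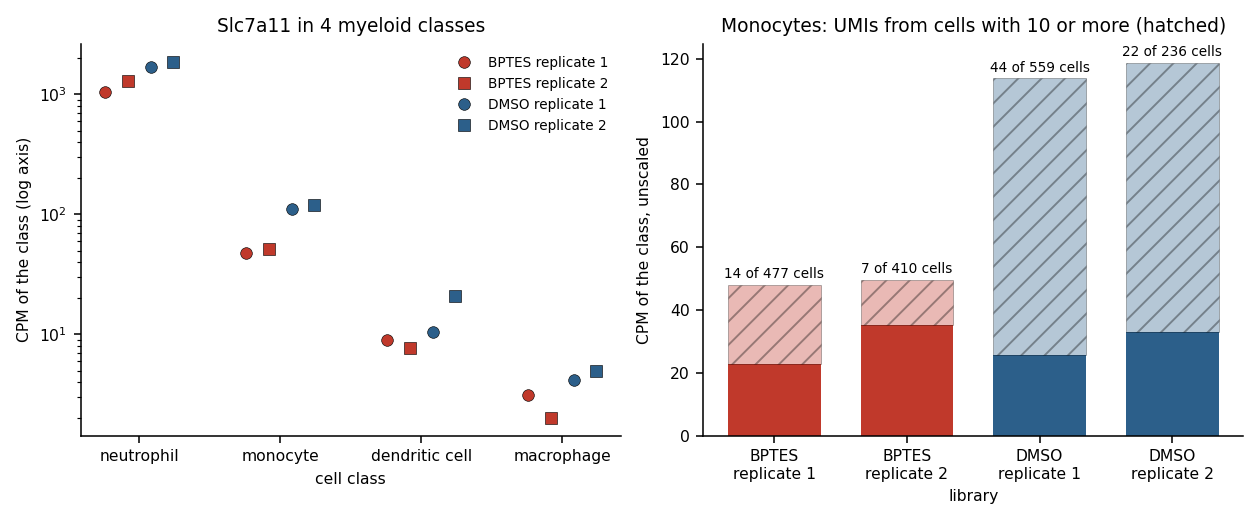
Left, Slc7a11 level per library in 4 myeloid classes (CPM of the class, log axis). Right, unscaled Slc7a11 CPM in monocytes per library, with the hatched part contributed by cells with at least 10 Slc7a11 UMIs and their number above each bar: the DMSO bars are taller through the hatched part, and the plain parts overlap.

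The same gene lay lower under BPTES in macrophages, dendritic cells and neutrophils and missed the threshold in each with the 4 libraries and the low-count filter. In macrophages it was at 3.14 and 2.02 against 4.21 and 4.99 CPM (log2 -0.82, SE 0.28, edgeR adjusted p = 0.154), and it passed without the filter (edgeR adjusted p = 0.0297; 9.01% of all genes called). There Slc7a11 was at 0.242% of its neutrophil level and 2 of the 6 neutrophil markers were as high. In dendritic cells it was at 8.99 and 7.64 against 10.396 and 21.1 CPM (log2 -0.92, SE 0.39, edgeR adjusted p = 0.254), and it passed without DMSO replicate 1 (log2 -1.34, edgeR adjusted p = 0.00165; 4.95% of all genes called) and was at -0.32 without DMSO replicate 2. In neutrophils the treated libraries were below the controls with a log2 fold change of -0.60 (SE 0.23, edgeR adjusted p = 0.530). That value shrank to -0.28 without the cluster led by Adgre4 and Ear2 and to -0.19 without the cluster led by S100a9 and S100a8. The share of neutrophils in the Adgre4 cluster, which had the lower Slc7a11 level (609.95 against 1866 CPM), was 18.8% and 16.7% under BPTES and 6.97% and 8.98% under DMSO.

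Mthfd2, Psat1 and Shmt2 lay outside the control range in monocytes and missed the threshold in the main fit. At a finer clustering edgeR called Mthfd2 higher, beside 2.72% of all genes. Without the filter edgeR called all 3, Mthfd2 higher and Psat1 (adjusted p = 0.0176) and Shmt2 (adjusted p = 0.0172) lower, beside 12.2% of all genes. With Slc7a11 the groups did not overlap for 4 of the 7 members tested, against 59.7% of all genes, so that this count is near the background. Mthfd2 was at 38.6 and 39.2 CPM under BPTES and at 17.7 and 29.0 CPM under DMSO (log2 0.77, SE 0.23, edgeR adjusted p = 0.102), and DESeq2 called it (adjusted p = 0.0458) beside 9.06% of all genes. It also passed by edgeR without DMSO replicate 2 (log2 1.11, adjusted p = 0.00185; 9.67% of all genes called), and was 0.42 without DMSO replicate 1. Psat1 (4.69 and 5.19 against 7.91 and 9.86 CPM) and Shmt2 (7.17 and 4.22 against 9.64 and 10.0 CPM) were lower, with log2 fold changes of -0.83 (SE 0.22, edgeR adjusted p = 0.0644) and -0.77 (SE 0.27, edgeR adjusted p = 0.119). Without 1 library the Shmt2 value ran from -1.21 (without BPTES replicate 1) to -0.47 (without BPTES replicate 2). The 2 mitochondrial folate enzymes Mthfd2 and Shmt2 therefore lay on opposite sides in the same cells. Atf4 and Ddit3 overlapped between the groups in monocytes, and Asns, Chac1 and Trib3, with 0 to 19 UMIs per library, did not pass the filter.

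In macrophages 7 members were tested and 0 called. By edgeR 3 had an unadjusted p under 0.05, as did 3035 of all 13824 genes. Ddit3 was at 37.8 and 41.7 against 31.8 and 34.35 CPM (log2 0.26, SE 0.09, edgeR adjusted p = 0.162), and Psat1 at 5.13 and 5.34 against 6.997 and 7.25 CPM (log2 -0.45, SE 0.17, edgeR adjusted p = 0.195). The difference of the treatment effect in proximal tubule from that in macrophages was fitted with an interaction term, by which 1.78% of 17343 genes and 0 of the 9 members tested were called. Atf4 had the smallest p among them, with an effect larger in proximal tubule by 0.38 on the log2 scale (SE 0.13, edgeR adjusted p = 0.186, unadjusted p = 0.0125). Chac1 did not pass the filter of this fit.

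Neutrophils, with the highest Chac1 level, and endothelium, with the highest Trib3 level, gave no call. Chac1 in neutrophils was at 19.6 and 22.6 CPM under BPTES and 17.5 and 8.38 CPM under DMSO (77, 69, 45 and 34 UMIs). The treated libraries lay higher, with a log2 fold change of 0.74 (95% interval -0.16 to 1.63, edgeR adjusted p = 0.645), and leaving out 1 library moved it from 0.26 (without DMSO replicate 2) to 1.31 (without DMSO replicate 1). In the latter setting it was called (edgeR adjusted p = 0.00988), as were 9.53% of all genes. Ddit3 in neutrophils overlapped (68.1 and 62.2 against 54.9 and 70.01 CPM).

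In endothelium all 10 members passed the filter, 0 had an unadjusted p under 0.05 and DESeq2 called 0. Of all 13624 genes tested there, 1615 had such an unadjusted p by edgeR. Trib3 was at 8.52 and 7.07 against 7.36 and 11.4 CPM, and Asns at 7.07 and 12.2 against 10.36 and 11.8 CPM. Chac1 was at 3.14 and 3.46 against 3.27 and 3.32 CPM. The 95% intervals of the log2 fold change ran from -0.79 to 0.25 for Trib3, from -0.81 to 0.29 for Asns and from -0.66 to 0.64 for Chac1. These intervals bound the change in the class with the highest Trib3 level, and they do not show that the groups were alike.

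In the remaining classes 0 members were called by edgeR or DESeq2, and 3 pairs had an unadjusted p under 0.05. Of all genes, 746 of 12160 in cycling cells and 1424 of 11739 in principal cells had such a p by edgeR. Of the 3 pairs, cycling cells had 2, Asns and Shmt2. Asns was at 1.22 and 0.48 against 5.92 and 2.43 CPM (log2 -2.17, edgeR adjusted p = 0.798), with 4, 1, 39 and 13 UMIs. It could pass the low-count filter there through the DMSO libraries alone. Shmt2 was at 21.0 and 17.3 against 35.7 and 26.9 CPM (log2 -0.70, edgeR adjusted p = 0.798). The third was Atf4 in principal cells, at 57.6 and 66.7 against 46.6 and 49.5 CPM (log2 0.36, edgeR adjusted p = 0.339). In thick ascending limb, by contrast, Atf4 was lower in both treated libraries (36.96 and 37.6 against 47.2 and 49.85 CPM). Summed over all kept cells of a library, Asns stood at 2.46 and 2.40 CPM under BPTES and at 2.74 and 3.40 CPM under DMSO, not scaled by TMM. Over the cells of named classes alone it was at 2.38 and 2.38 against 2.53 and 2.997 CPM, and over those other than plasma cells at 1.41 and 1.51 against 2.501 and 2.86 CPM. Plasma cells held 230 and 169 of the 522 and 424 Asns UMIs of the named cells under BPTES and 9 and 37 of the 542 and 657 under DMSO.

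The wider pathway was followed with 64 other genes: eIF2alpha kinases and phosphatases, stress transcription factors, amino acid transporters, tRNA synthetases, serine, folate and proline enzymes, other ATF4 targets and endoplasmic reticulum chaperones. In 9 of the 14 classes edgeR called 0 of them, with 2 to 12 at an unadjusted p under 0.05. The 12, of 58 tested, were in macrophages, where 3035 of all 13824 genes had such a p. The 2, of 41 tested, were in distal convoluted tubule, with 459 of 6907. Monocytes had 8 of 56 tested, 5 higher and 3 lower, against the 9.27% of all genes. The largest were Mthfd1, a cytosolic folate enzyme (7.97 and 8.76 against 13.7 and 14.65 CPM, log2 -0.76), Ppp1r15b, the constant eIF2alpha phosphatase subunit (89.9 and 104.4 against 54.3 and 64.1 CPM, log2 0.72), and Slc3a2 (101.0 and 101.5 against 165.1 and 151.9 CPM, log2 -0.65), with edgeR adjusted p of 0.0371, 0.0213 and 0.0132. Slc3a2 is the heavy chain that carries xCT to the membrane, so both chains of the exchanger fell in monocytes. Slc3a2 also pairs with other amino acid transporters.

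Calls outside monocytes were few and all lower under BPTES. Sesn2, a leucine sensor, fell in dendritic cells, at 14.7 and 12.2 against 23.05 and 22.3 CPM (log2 -0.75, edgeR adjusted p = 0.0388). It was 1 of 57 tested, while 2.15% of all genes in the class were called, so that this count is near the background. The dendritic cluster led by Xcr1 and Clec9a, in which Sesn2 was lower, made up 36.0% and 39.7% of the class under BPTES and 17.9% and 29.8% under DMSO. Before TMM scaling Sesn2 was at 8.21 and 8.16 against 6.01 and 15.5 CPM in that cluster, where the groups overlapped, and at 19.9 and 15.2 against 26.9 and 25.3 CPM in the cluster led by Cd209a, where they did not. Atf3, a stress transcription factor induced by ATF4 and by other routes, fell in endothelium, at 86.6 and 94.8 against 162.2 and 184.5 CPM (log2 -0.94, edgeR adjusted p = 0.00145). Ppp1r15a, the inducible eIF2alpha phosphatase subunit GADD34, fell there too, at 59.8 and 57.05 against 79.7 and 85.9 CPM (log2 -0.50, edgeR adjusted p = 0.0228). With Atf3 this makes 2 of 59 tested in endothelium, against 0.778% of all genes. In thick ascending limb Atf3 fell from 51.9 and 56.3 CPM under DMSO to 10.9 and 14.6 CPM under BPTES (log2 -2.11, edgeR adjusted p = 9.3e-04). It was 1 of 54 tested in this class, against 0.362% of all genes. The median share of mitochondrial UMIs in that class was 11.95% and 12.1% under BPTES and 6.05% and 8.77% under DMSO, and its part in the result was not tested. In proximal tubule Cebpb, a partner of ATF4, fell from 46.8 and 49.8 to 34.2 and 33.5 CPM (log2 -0.51, edgeR adjusted p = 0.0444). It was 1 of 63 tested, against 0.706% of all genes.

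Some genes that rise during tissue dissociation fell in the 3 classes in which Atf3, Ppp1r15a or Cebpb fell. Of 11 immediate early and heat shock genes, edgeR called 6 lower in endothelium (Egr1, Fos, Zfp36, Ier2, Junb and Btg2). It called 4 lower in thick ascending limb (Zfp36, Egr1, Ier2 and Junb) and 2 in proximal tubule (Zfp36 and Junb). In these classes it called 0 of the 11 higher. The share of all genes called was 0.778%, 0.362% and 0.706% in the same order of classes. Egr1 in endothelium was at 183 and 147 against 356 and 408 CPM. The 11 genes summed to 3282 and 3698 CPM in endothelium under BPTES and 4558 and 5493 CPM under DMSO, to 513 and 686 against 1232 and 1112 CPM in thick ascending limb, and to 134 and 157 against 200.1 and 274 CPM in proximal tubule. In dendritic cells, where Sesn2 fell, they summed to 6820 and 6901 against 6577 and 6425 CPM. In monocytes edgeR called 2 of the 11, both higher, beside 9.27% of all genes. They were Hspa1a and Hspa1b (546 and 518 against 259.9 and 312 CPM, and 479 and 472 against 212 and 224 CPM). Of the 11 genes, 4 lay above and 7 below 0 there. They summed to 6241 and 5697 against 4889 and 6787 CPM, and the groups overlapped. Atf3, Cebpb and Ppp1r15a are themselves quick responders of this kind, and the part of tissue handling in their values was not tested.

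The genes whose class means followed a member most closely were found by Pearson r of log2(CPM + 1) over 17 classes, among 15242 genes. For Slc7a11 these were Hcar2 and Trem1 (r of 0.97 each), for Atf4 Sp100 and 9930111J21Rik2 (0.96 each), for Trib3 Ctnna3 (0.95) and Erg (0.91), for Ddit3 Otud5 and Bcl2l11 (0.90 each) and for Shmt2 Sfxn1 (0.89) and Slc52a2 (0.87). For Psat1 they were Rnaseh2b (0.88) and Haspin (0.86), for Chac1 Fut2 (0.87) and 4933432I03Rik (0.85), for Mthfd2 Sass6 and Arhgap11a (0.83 each), for Phgdh Bcl2l15 and D10Wsu102e (0.82 each) and for Asns Fkbp11 and Tspan15 (0.77 each). Atf4 and Ddit3 had an r of 0.71 with each other, and Asns and Chac1 0.59. The classes come from the same 4 libraries, so these values describe likeness over classes and carry no test.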

How the data were processed

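Gene by cell counts (UMIs) were used as deposited, made with Cell Ranger 8.0.1 per the file headers and on mm10 per the submitters' processing notes. Barcodes with at least 500 UMIs, 300 genes and at most 50% mitochondrial UMIs were kept, Scrublet doublets removed (3867), and cells clustered with scanpy 1.11.5 and Leiden (3000 genes, 40 components, 15 neighbours, resolution 1). Clusters were named from 24 marker lists and otherwise stayed unnamed. Cells are not replicates: counts were summed per library and class and tested with edgeR 4.0.16 (R 4.3.3; quasi-likelihood, TMM, low-count filter, Benjamini-Hochberg over all genes of the class). With 2 libraries against 2 an exact permutation test cannot go below 0.333 and none was used. Alternatives were DESeq2 1.42.0, other scaling, filters, resolution 2, doublets kept, a replicate block and leaving out each library. Fits without a cluster or without cells with neutrophil UMIs were chosen after seeing the data. The members and lists were chosen with earlier results of these data known. Named genes were all members, up to 3 called pathway genes per class by size of change, the 2 genes most like each member, and Jchain and proximal tubule markers. AC144852.1, a feature that overlaps Ddit3, had 0 UMIs in the named classes, and how reads in the overlap were assigned is not given in the sources used here. The fitting was tested on simulated data.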

Additional observations from a re-analysis of the deposited data

How the results depend on the processing

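Of 488 recomputed fold changes, 432 kept their direction and side of the threshold, 34 passed it newly, 4 lost it (Slc7a11 in monocytes, values in the report) and 18 changed sign, none of these called; the cause was not tested. Chac1 in endothelium changed sign at resolution 2 (0.0212) and at most 25% mitochondrial UMIs (0.0306), Slc7a11 in proximal tubule with doublets kept (0.13), and Mthfd2 there without the low-count filter (0.0014) or the injured cluster (0.0073). The others did so when 1 library was left out. In endothelium Asns then ran from -0.66 to 0.13 (above 0 without BPTES replicate 1), Chac1 from -0.0785 to 0.0715 (above 0 without BPTES replicate 1, and 0.0027 without DMSO replicate 2) and Trib3 from -0.53 to 0.10 (above 0 without DMSO replicate 2). Ddit3 in neutrophils ran from -0.12 (without DMSO replicate 1) to 0.25, and was -0.0052 without BPTES replicate 1. In proximal tubule Shmt2 ran from -0.0271 (without BPTES replicate 1) to 0.11 and Mthfd2 from -0.0619 to 0.0604 (above 0 without BPTES replicate 1, and 0.0301 without DMSO replicate 1). The difference between proximal tubule and macrophages ran from -0.16 to 0.83 for Ddit3 and -0.0051 to 0.68 for Slc7a11 (both below 0 without BPTES replicate 2), -0.0513 (without DMSO replicate 2) to 0.43 for Mthfd2 and -1.36 to 0.10 (without BPTES replicate 1) for Trib3.

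The members called in S3 numbered 1 with DESeq2, 1 at resolution 2 and 5 without the filter, where 0.661%, 0.861% and 1.84% of all genes were called. In proximal tubule they numbered 1, 1 and 3 (Asns in each, with Chac1 lower and Ddit3 higher in the last; 5.88%, 0.726% and 8.95% of all genes). In monocytes there were 2 with DESeq2, 4 without the filter and 0 with doublets kept (9.06%, 12.2% and 0.0606%), and the 1 at resolution 2 was Mthfd2 (2.72%). In macrophages there was 1, Slc7a11, without the filter (9.01%) and in dendritic cells 1, Ddit3, with doublets kept (3.903%). Leaving out 1 library changed the members called in proximal tubule, S1-S2, monocytes, dendritic cells and neutrophils. It also did so for the difference between proximal tubule and macrophages. A group then holds 1 library, so these calls are not counted here. The lone library of a group is then assumed to vary like the others. The labels do not say whether equal replicate numbers pair libraries across the groups. Deviations of same-numbered libraries correlated between -0.13 and 0.24, with 0.24 in S3 and 0.14 in proximal tubule, which does not settle this. With a replicate block 3 members were called in proximal tubule (Atf4 higher, Asns and Chac1 lower), where 14.5% of all genes were called, and 5 in S3 (Atf4 higher, Asns, Trib3, Psat1 and Phgdh lower), where 6.20% were.

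Calls over all genes varied far more. Against 113 in proximal tubule they ran from 18 (without BPTES replicate 2) to 2315 (block), against 1 in S3 from 1 to 779, 19 in S1-S2 from 9 to 1070, 1152 in monocytes from 7 to 2458, 177 in macrophages from 1 to 1940, 278 in dendritic cells from 7 to 1252, 106 in endothelium from 49 to 678, 39 in thick ascending limb from 13 to 790, 97 in B cells from 0 to 1391, 20 in T cells from 11 to 675, 38 in innate lymphoid cells from 9 to 258, 9 in principal cells from 0 to 654, 8 in intercalated cells from 1 to 319, 6 in distal convoluted tubule from 5 to 55, 0 in neutrophils from 0 to 1008 and 0 in cycling cells from 0 to 349. Chac1 and Trib3 in tubule rest on few UMIs, so small changes there were not detectable at this depth.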

Other observations

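The highest level of Phgdh, the first enzyme of serine synthesis, was in a cluster that stayed unnamed. Its 248 cells were led by Cryab, Fst, Apela and Slc14a2, and 1 principal cell marker was detected in it. Phgdh was at 375 and 236 CPM there under BPTES and at 330.2 and 210.4 CPM under DMSO, so that the groups overlapped. In the same cells Asns was at 15.8 and 8.72 CPM under BPTES and 30.6 and 17.9 CPM under DMSO, and Ddit3 at 50.5, 47.1, 60.3 and 44.4 CPM in that order of libraries. These levels are not scaled by TMM and were not tested.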
